A study of Drosophila melanogaster with 2 samples.

Results

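A set of 10 genes of enteroendocrine cells were followed in posterior midguts of Drosophila melanogaster with and without Gli-RNAi: the transcription factor genes pros, tap and Poxn, the hormone processing genes amon, 7B2, svr, Phm and Pal2, and the vesicle release genes nSyb and Syt1. These 10 of 13822 loci were chosen by name in the deposited transcript table, and the transcript with the highest mean read count stood for each. For 9 the symbol was found as such (nSyb as n-syb), and Pal2, listed there as Pal, was found through its Entrez identifier. All 10 had reads, and 9 passed the filter on low counts, with Poxn below it.

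Enteroendocrine cells are the hormone secreting cells of the fly midgut, scattered among the absorptive enterocytes and renewed from intestinal stem cells under the control of Prospero, the protein of pros, and of proneural factors. Their peptide hormones are cut out of precursors in secretory granules: a prohormone convertase (amon), which needs a helper protein (7B2), cleaves at basic residues, a carboxypeptidase (svr) trims those residues, and a monooxygenase (Phm) and a lyase (Pal2) act in turn to amidate the end of the peptide. Granules and vesicles then fuse with the cell membrane through SNARE proteins such as neuronal Synaptobrevin (nSyb), with Synaptotagmin 1 (Syt1) as a calcium sensor. The processing and release genes also work in neurons, and svr is active in many tissues.

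All flies were females of 9 days that carried 5966GS-GAL4, a GeneSwitch driver labelled as acting in enterocytes, together with UAS-Gli-RNAi. In the induced condition (RU+) the steroid RU486 switched the RNAi on, and in the uninduced condition (RU-) ethanol alone was given, so drug and knockdown cannot be told apart. For each condition 75 midguts were dissected and pooled for extraction, and 3 libraries labelled as biological replicates were made from poly(A) RNA, so the p-values reflect how much these libraries vary, part of which may be technical. The driver is labelled for enterocytes and the whole dissected tissue was sequenced, so fewer enteroendocrine cells and less RNA per cell cannot be told apart in any of these values. Libraries held between 6821908 and 14303722 reads, summed over the 1 transcript kept per locus. Gli itself fell from 1962 ± 110 to 899 ± 19.1 normalised counts (SD, n = 3). Uninduced replicate 3 stood apart from the other controls (correlations over genes of 0.991 and 0.992 against 0.996 between the other controls). Values without it are given beside the results of members that it moves most.

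Expressed per length, the members spanned a wide range. The level given here is the RPKM value, computed from the read counts with the length of the counted transcript and the scaled library size. In the uninduced condition Phm stood highest at 46.3 ± 2.87 and svr followed at 24.03 ± 2.50. The convertase helper 7B2 had a level of 22.2 ± 3.34 and Pal2 one of 17.7 ± 0.688. The convertase amon itself lay far lower at 4.45 ± 0.607, followed by nSyb at 2.84 ± 0.890 and pros at 2.099 ± 0.205. Lowest were tap at 1.22 ± 0.428, Syt1 at 1.081 ± 0.206 and Poxn at 0.507 ± 0.0989 (all SD, n = 3). Neighbours in this order whose libraries overlapped were svr and 7B2, nSyb and pros, and tap and Syt1. In the induced condition the order changed below Pal2. There amon, at 2.54 ± 0.311, overlapped with nSyb above it and pros below it, and tap, at 0.272 ± 0.0508, was the lowest and overlapped with Poxn at 0.284 ± 0.0393.

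**Figure D1:**
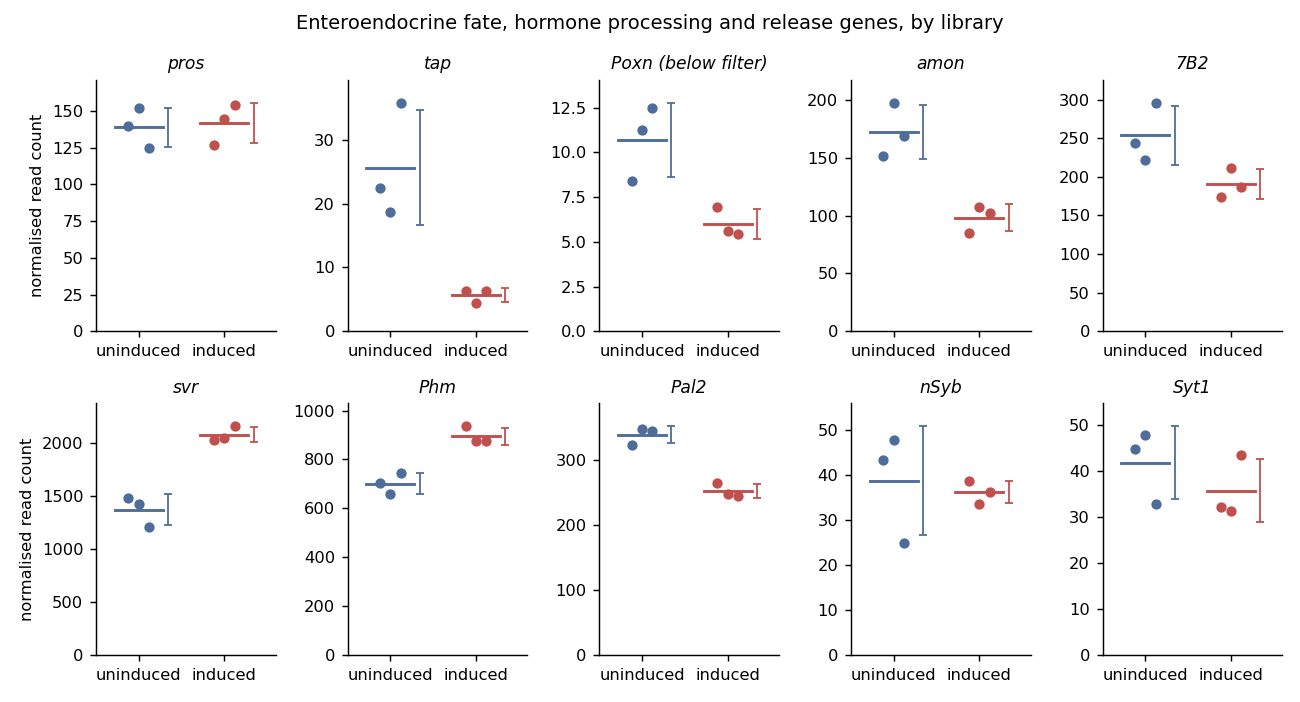
Normalised read count (vertical axis, from 0) of each of the 10 genes in the 3 uninduced (blue) and 3 induced (red) libraries. Points are libraries, horizontal lines means and bars SD. The libraries of the conditions do not overlap for tap, Poxn, amon, 7B2, svr, Phm and Pal2, and they overlap for pros, nSyb and Syt1.

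Genes were tested over the whole table with edgeR's quasi-likelihood test at an adjusted p (Benjamini-Hochberg) under 0.05, by which 54.3% of all 8236 genes tested were called, 27.6% as rising and 26.8% as falling. With library totals as scaling 3737 genes rose and 1512 fell, in place of 2272 and 2204, and 2 members rose and 3 fell, 7B2 being the call that was lost. Of the 8 members that passed the count filter in every library, 2 rose (svr and Phm), 3 fell (amon, 7B2 and Pal2) and 3 did not pass the test (pros, nSyb and Syt1), a share near that of all genes. The other tested member, tap, also fell, but it passed the filter through the uninduced libraries alone, so that a fall was built into its being tested. The median log2 fold change over the 8 was -0.20 and over all genes tested 0.03. No member of the 8 changed by 2-fold or more. In normalised counts 5 of the 8 had conditions that did not overlap, beside 60.4% of all genes tested.

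The transcription factor genes differed from each other. The pan-enteroendocrine factor gene pros had normalised counts of 140.0, 152 and 125 in the uninduced libraries and 127, 145 and 154 in the induced ones. Both sets of libraries lay over each other, with means of 139 ± 13.6 and 142 ± 13.8 and a log2 fold change of -0.00 ± 0.113 (SE, adjusted p = 0.99, edgeR). With library totals as scaling it was 0.19 (adjusted p = 0.18, edgeR). At 342 uninduced and 500 induced reads, small changes of pros could not be detected. All 3 listed pros transcripts gave nearly the same counts, with log2 ratios of means from 0.03 to 0.04. It lies on the plus strand of chromosome 3R between 7197709 and 7219326, in the coordinates of the deposited table, whose build is not named.

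The gene tap encodes a bHLH protein of the neurogenin family and fell the most of the tested members. Its normalised counts were 22.4, 18.7 and 35.9 in the uninduced libraries and 6.32, 4.49 and 6.35 in the induced ones, from 59 and 21 reads in all. Every induced library lay below every uninduced one. Between the means of 25.7 ± 9.01 and 5.72 ± 1.07, tap fell by 2.03 ± 0.338 on the log2 scale (4.10-fold, adjusted p = 0.00015, edgeR), and by 1.76 ± 0.396 without uninduced replicate 3, its highest library. As tap passed the filter through the uninduced libraries alone, a fall was built into this test, and its p is given as a description only. This gene has a single exon and lies from 17352750 to 17354921 on the plus strand of chromosome 3L.

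The paired-box gene Poxn, known for its part in sense organs and in subsets of enteroendocrine cells, was too low for the test. It lies on the minus strand of chromosome 2R, between 11714198 and 11722280, and its longer listed transcript is counted here. It had 6, 12 and 8 reads in the uninduced libraries and 11, 5 and 6 in the induced ones, or 8.40, 11.2 and 12.5 against 6.95, 5.61 and 5.44 after scaling. The scaled values of the conditions did not overlap, but the ratio of scaled totals, 0.574, had a 95% counting interval (exact, Clopper-Pearson) of 0.310 to 1.053. That interval includes no change and covers counting error only, so that a difference was not detectable at this depth.

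Of the processing genes, amon and its helper 7B2 fell. The prohormone convertase gene amon had normalised counts of 151, 198 and 168 in the uninduced libraries and 84.7, 108 and 103 in the induced ones. No library of one condition reached into the other. From 172 ± 23.5 to 98.3 ± 12.03, amon fell by 0.86 ± 0.129 (1.82-fold, adjusted p = 6.1e-05, edgeR). Its 1 listed transcript has 12 exons and lies between 22523418 and 22539881 on chromosome 3R, minus strand.

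Its helper gene 7B2 (chromosome 3R, plus strand, 1202476 to 1203701) had normalised counts of 244, 222 and 296 in the uninduced libraries against 174, 212 and 187 in the induced ones. The conditions were separate, though the highest induced and the lowest uninduced library lay close to each other. The fall was 0.41 ± 0.113 on the log2 scale (adjusted p = 0.0073, edgeR), from 254 ± 38.2 to 191 ± 19.3. This call was lost without induced replicate 1 (-0.33, adjusted p = 0.056) and with library totals as scaling (-0.22, adjusted p = 0.10). Without uninduced replicate 3, which was its highest library, 7B2 fell by 0.30 ± 0.0991 (adjusted p = 0.0075). Reads of amon per read of 7B2 were 0.621, 0.890 and 0.568 in the uninduced libraries and 0.487, 0.508 and 0.549 in the induced ones, a pair chosen with the values known and given without a test.

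The carboxypeptidase D gene svr moved the other way and was the most read member. The transcript counted spans 393314 to 403113 on the plus strand of chromosome X and has 9 exons. Its normalised counts were 1485, 1424 and 1213 in the uninduced libraries and 2030.0, 2051 and 2161 in the induced ones. All induced libraries lay well above the uninduced ones, the lowest of which was replicate 3. From 1374 ± 143 to 2080.0 ± 70.5, svr rose by 0.60 ± 0.0698 (1.51-fold, adjusted p = 5.7e-06, edgeR), and by 0.52 ± 0.0456 without uninduced replicate 3.

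The 8 listed svr transcripts did not share this rise equally. Long svr transcripts encode carboxypeptidase D forms with several enzyme-like domains and short ones a form with a single such domain. The 2 short transcripts, which end at 398365, had log2 ratios of means of 0.24 and 0.35, and the 6 others, which end at 402467 or 403113, had ratios from 0.60 to 0.70. Transcripts of a locus share reads in the deposited table, so these values are not independent and were not tested. The pair that starts at 393314 separates the ends most simply. Reads of its long transcript (5898 bases, the one counted for svr) per read of its short one (3143 bases) were 1.28, 1.30 and 1.20 in the uninduced libraries and 1.55, 1.57 and 1.72 in the induced ones.

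The difference between the long and the short transcript's reads counts those in the long 3′ part less any in exon sequence of the short form alone. After scaling it was 322, 331 and 198 in the uninduced libraries and 722, 745 and 901 in the induced ones, a mean of 284 ± 74.2 against 789 ± 97.5 (SD, n = 3). The ratio of these means was 2.78, beside 1.18 for the short transcript. The pair that starts at 390504 gave the same differences, read for read. Other listed loci nearby were CG17778, which ends 101 bases before the first svr start and had 581 induced and 58 uninduced reads, and arg, 337 bases past the long end, with 29 and 22 reads. Whether reads from these neighbours enter svr was not tested.

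**Figure D2:**
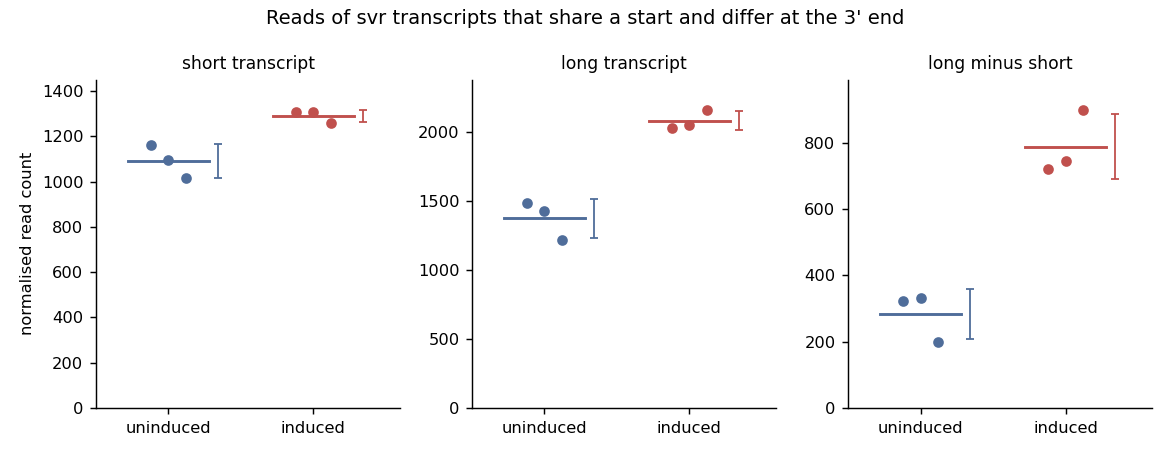
Normalised read count (vertical axes, from 0) of the short and the long svr transcript that share the start 393314, and of the long minus the short, in uninduced (blue) and induced (red) libraries. Points are libraries, lines means and bars SD. The difference runs from 198 to 331 in the uninduced and from 722 to 901 in the induced libraries.

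The last processing step, amidation, was split between its enzymes. Phm, the monooxygenase that acts first (chromosome 2R, minus strand, 19872750 to 19875990), had normalised counts of 704, 657 and 743 in the uninduced libraries and 936, 873 and 875 in the induced ones. Every induced library was above every uninduced one. From 701 ± 43.6 to 895 ± 35.3, Phm rose by 0.36 ± 0.067 (1.28-fold, adjusted p = 0.00042, edgeR). A gene of the opposite strand inside the Phm locus, CG30178, had 10 induced and 8 uninduced reads, against 3224 and 1681 of Phm.

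Pal2, the lyase that completes the amide (chromosome 2R, plus strand, 19575681 to 19578107), had normalised counts of 323, 347 and 344 in the uninduced libraries and 265, 248 and 244 in the induced ones. Here the uninduced libraries were all higher, and each condition was tight. Pal2 fell by 0.42 ± 0.0755 (1.34-fold, adjusted p = 0.0003, edgeR), from 338 ± 13.1 to 252 ± 11.1. With library totals as scaling the fall was 0.23 (adjusted p = 0.018). Within a library, which needs no scaling, 2.18, 1.89 and 2.16 reads of Phm per read of Pal2 were found in the uninduced condition and 3.53, 3.53 and 3.59 in the induced one. This pair was likewise chosen with the values known, and its means of 2.075 ± 0.161 and 3.55 ± 0.0342 (SD, n = 3) are given without a test.

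Neither release gene passed the test. The vesicle SNARE gene nSyb (chromosome 3L, minus strand, 1631910 to 1637767) had normalised counts of 43.4, 47.8 and 24.9 in the uninduced libraries and 38.6, 33.6 and 36.3 in the induced ones. The induced values lay inside the range of the uninduced ones, which was set by a low replicate 3. The log2 fold change was -0.14 ± 0.213 (adjusted p = 0.61, edgeR), or -0.33 without uninduced replicate 3 and 0.05 with library totals as scaling. The calcium sensor gene Syt1 (chromosome 2L, minus strand, 2780741 to 2799970) had 44.8, 47.8 and 32.7 in the uninduced and 32.2, 31.4 and 43.6 in the induced libraries, which overlapped. Its log2 fold change was -0.27 ± 0.203 (adjusted p = 0.29, edgeR), or -0.39 without uninduced replicate 3 and -0.08 with library totals as scaling. With 98 to 131 reads a condition for nSyb and 104 to 127 for Syt1, small changes could not be detected at this depth.

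**Figure D3:**
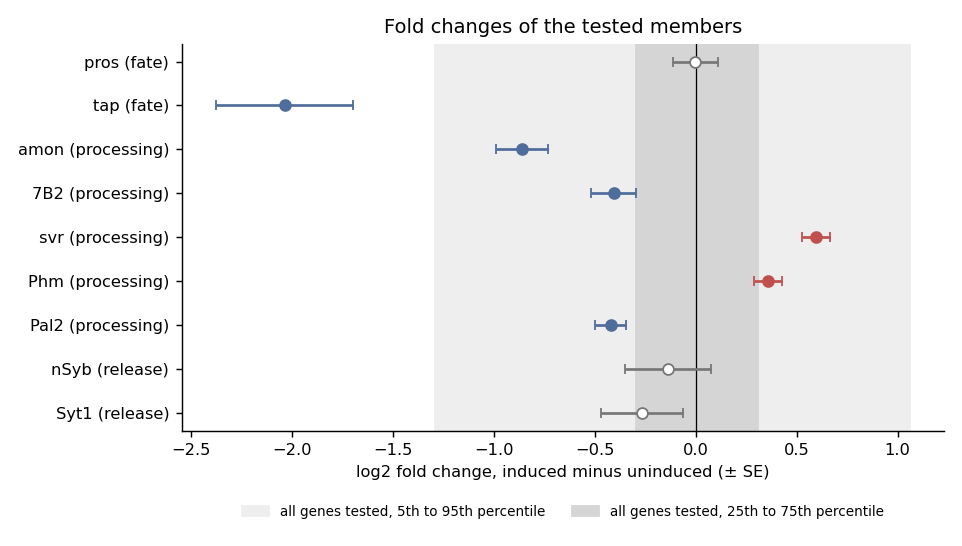
Log2 fold change, induced minus uninduced, of the 9 tested genes, with SE as bars. Filled red and blue points rose and fell, open grey points did not pass, and the shaded bands show where all 8236 genes tested lie (25th to 75th percentile, -0.30 to 0.31, and 5th to 95th, -1.29 to 1.06). Of the 9, tap, at -2.03, lies outside the wider band, and it passed the count filter through the uninduced libraries alone.

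Because pros overlapped between conditions, the other members were also set against it within each library, a measure that does not depend on the scaling between libraries. The log2 ratio of reads plus 1 was compared with an exact permutation test (two-sided), for which 3 against 3 libraries cannot give a p under 0.1. Of the 7 members that passed the count filter in every library, 3 (amon, svr and Pal2) had conditions that did not overlap in this ratio, a share near the 46.0% of all other genes tested. The low genes tap and Poxn stand outside that count and their values are given only as a description. Reads of tap per pros read were 0.168, 0.129 and 0.296 in the uninduced libraries and 0.0545, 0.0385 and 0.0468 in the induced ones. For amon they were 1.079, 1.30 and 1.35 against 0.668, 0.746 and 0.667.

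Pal2 had 2.30, 2.28 and 2.74 reads per pros read in the uninduced condition against 2.079, 1.71 and 1.58, and Poxn 0.0693, 0.0798 and 0.111 against 0.0594, 0.0462 and 0.0409. Of the 9 members set against pros, only svr was higher without overlap, at 15.9, 14.1 and 13.9 in the induced libraries against 10.5, 9.34 and 9.62. For amon, svr and Pal2 the exact p was the smallest the design allows, 0.1 (0.18 adjusted over the 9). The low genes tap and Poxn had the same exact and adjusted p, which at their counts are a description only. For 7B2, Phm and Syt1 the conditions overlapped (exact p = 0.2, adjusted 0.225), as they did for nSyb (exact p = 0.8). The induced minus uninduced log2 ratios were -2.01 for tap, -0.84 for amon, -0.82 for Poxn, -0.45 for Pal2 and 0.57 for svr.

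**Figure D4:**
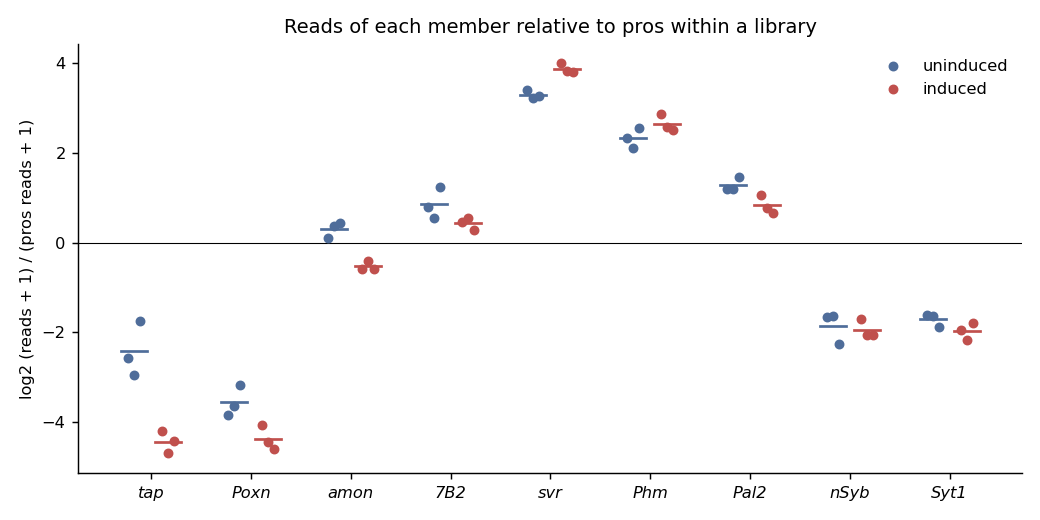
Log2 of reads plus 1 of each gene over reads plus 1 of pros in the same library (vertical axis), uninduced in blue and induced in red. Points are libraries and lines means. The conditions are apart for tap, Poxn, amon, svr and Pal2 and overlap for 7B2, Phm, nSyb and Syt1.

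Other genes of the same steps were read from lists that, like the members, were chosen with earlier results of these data known. Of 11 tested further fate genes 4 rose and 3 fell (median log2 fold change 0.08), beside 27.6% rising and 26.8% falling of all genes tested. The proneural gene sc, which promotes enteroendocrine fate, rose from 5.71 ± 2.64 to 24.5 ± 2.64 normalised counts, by 2.04 ± 0.323 (adjusted p = 1.0e-04, edgeR). With 86 and 14 reads, sc passed the filter through the induced libraries alone, so that a rise was built into its being tested and into the count of 4. Delta, the gene of a Notch ligand (listed as Dl), also rose, to 424 ± 8.64 normalised counts from 149.7 ± 19.2 (adjusted p = 5.1e-09, edgeR), and is also among the progenitor markers. The receptor gene robo2 (listed as lea), which receives the Slit signal that enteroendocrine cells send to progenitors, fell by 1.22 ± 0.102, and mira, an adaptor of asymmetric division, by 0.83 ± 0.0758. The broad bHLH gene da (0.08, adjusted p = 0.27) and sina (-0.04, adjusted p = 0.70) did not pass.

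Below the filter, and named after their values were seen, the proneural gene ase had 22 induced reads and 2 uninduced ones (ratio of scaled totals 7.46, 95% interval 1.83 to 65.4). The zinc finger gene nerfin-1 had 15 induced reads and 0 uninduced ones, or 3.39-fold higher if 3 reads over the whole condition stand for the 0. That value leaves out the counting error of the 15 reads. The gene dimm, whose product drives peptide processing genes in neuroendocrine cells of the fly, had 29 and 16 reads (ratio 1.23, interval 0.646 to 2.42). Also below the filter, the proneural genes ac and l(1)sc had 0 reads, fd59A had 2 and 0, and phyl 14 and 4 (ratio 2.37, interval 0.745 to 9.90). These intervals cover counting error only.

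Of 10 tested further genes of processing and dense-core vesicles 5 rose and 4 fell (median 0.06), beside 27.6% rising and 26.8% falling of all genes. With library totals as scaling 1 fell, and with DESeq2 3. The number that rose was 4 with DESeq2, with sums over transcripts, and without any 1 induced library or uninduced replicate 2. The vesicle membrane gene IA-2 was the most read of those named and fell from 3529 ± 358 to 2184 ± 15.1, by 0.69 ± 0.0661 (adjusted p = 6.9e-07, edgeR), and Rph, a Rab effector gene, fell by 0.67 ± 0.199. In the other direction Cadps, a priming factor of dense-core vesicles, rose by 0.87 ± 0.151, and ICA69, a gene of vesicle formation, by 1.04 ± 0.303. At 58 and 19 reads ICA69 too passed the filter through the induced libraries alone, which bears on the count of 5. Convertases of the general secretory route also rose, the furin genes Fur1 by 0.28 ± 0.105 (adjusted p = 0.038, edgeR) and Fur2 by 0.62 ± 0.127 (adjusted p = 0.00089, edgeR). Both are singled out with their values known. Rab3 (-0.16, adjusted p = 0.37) did not pass.

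Of 12 tested further release genes 6 rose and 3 fell (median 0.29), beside 27.6% rising and 26.8% falling of all genes tested. Rop, the Sec1/Munc18 gene that works with syntaxin in many cells, rose from 1232 ± 42.2 to 2443 ± 68.6, by 0.99 ± 0.0537 (adjusted p = 1.9e-09, edgeR). Sytalpha rose by 0.81 ± 0.139, while Syt12 fell by 1.31 ± 0.305 and the complexin gene cpx by 0.81 ± 0.261. For cpx the libraries of the conditions overlapped, with 25.4 normalised counts in the highest induced and 24.9 in the lowest uninduced one. The number that fell was 2 with DESeq2, with library totals as scaling, and without induced replicate 1, induced replicate 2 or uninduced replicate 2. The general fusion genes alphaSnap (0.10, adjusted p = 0.15) and Nsf2 (0.16, adjusted p = 0.06) did not pass.

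Of 12 tested hormone genes, whose precursors the processing enzymes act on, 7 fell and 2 rose, beside 26.8% falling and 27.6% rising of all genes tested (median -0.51, beside 0.03 for all genes). Whether the list differs from other genes was not tested. The number that rose was 1 without induced replicate 1, induced replicate 3 or uninduced replicate 2, and 4 with library totals as scaling. CCHa2, at -1.77 ± 0.077, Nplp2, at -1.33 ± 0.142, and NPF, at -1.03 ± 0.0957, were among those that fell, whereas ITP, an ion transport peptide gene also known from neurons, rose by 1.02 ± 0.0951 and AstA (0.07, adjusted p = 0.26) did not pass.

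**Figure D5:**
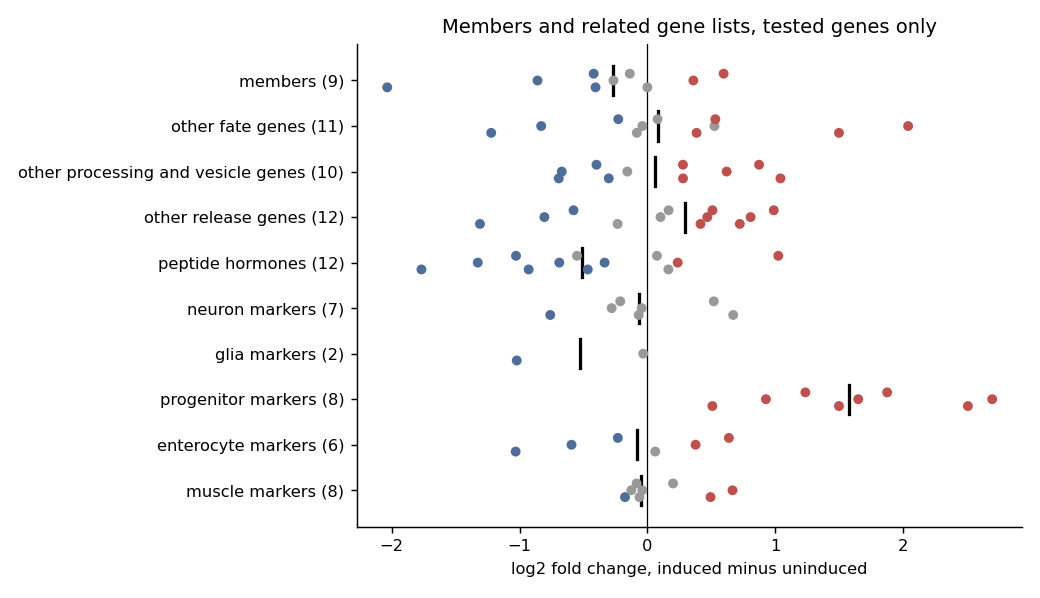
Log2 fold change, induced minus uninduced (horizontal axis), of the tested genes of each list, with the number tested in brackets. Red points rose, blue points fell, grey points did not pass, and black lines are medians, which run from -0.53 for the 2 glia markers to 1.57 for the 8 progenitor markers.

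Markers of other cells in the dissected tissue were read beside these results and the 27.6% rising and 26.8% falling of all genes tested. Of 14 matched neuron markers 7 were tested, and nrv3 was the 1 that fell (-0.76 ± 0.0777) with none rising by edgeR's test, against 1 rising at an unadjusted p under 0.05 and 1 by DESeq2. Leaving out any library other than uninduced replicate 1 also gave 1 that rose. The neuronal genes elav (-0.07, adjusted p = 0.79) and Rbp9 (-0.05, adjusted p = 0.69) did not pass, nor did Sh (0.67, adjusted p = 0.094) or Syn (0.52, adjusted p = 0.081), and fne and VGlut had 0 reads. The gene ple, of dopamine synthesis, was below the filter at 60 induced and 15 uninduced reads, or 17.2 ± 7.35 and 5.82 ± 2.84 normalised counts, without overlap; Sh, Syn and ple are named after their values were seen. The summed level of this list was 116 to 124 RPM (reads scaled by the library total) in the induced and 141 to 163 in the uninduced libraries. Most of that sum was nrv3, with 2498 induced and 2865 uninduced reads, which fell from 1173 ± 112 to 692 ± 44.5 normalised counts. Of 5 glia markers 2 were tested and Gs2 fell by 1.02 ± 0.0488, with the list at 379 to 390 against 594 to 605 RPM. That sum was nearly all Gs2 (9454 induced and 12945 uninduced reads) and moody, which did not pass (-0.03, adjusted p = 0.71). The glial genes repo, alrm and wrapper had between 1 and 5 reads a condition. What neurons or glia contribute to nSyb, Syt1, amon or Phm was not tested.

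All 8 progenitor markers rose, or 7 without induced replicate 1, where of all genes tested 27.6% rose and 26.8% fell. The list stood at 471 to 494 RPM in the induced and 135 to 159 in the uninduced libraries. Sox21a and sna led at 2.69 ± 0.0708 and 2.50 ± 0.229. Of the uninduced libraries, 1 was over the filter for sna. Of 6 enterocyte markers 2 rose and 3 fell, and the summed level was 3424 to 3498 against 3840.0 to 4134 RPM. The most read of the 6, Npc1b, fell from 20640 ± 1268 to 10110 ± 201 normalised counts. The 2 that rose were nub (0.64) and mex1 (0.38). Of 8 muscle markers 2 rose and 1, Mhc, fell (-0.18 ± 0.0634), a call that was lost when any 1 induced library or uninduced replicate 1 or 2 was left out, while 2 fell without uninduced replicate 3. The muscle list stood at 1449 to 1497 against 1209 to 1344 RPM, a level that rests on library totals. In the scaling of the test its median log2 fold change was -0.05, beside 0.03 for all genes tested. Tissue makeup was not measured, and its part in the values of svr, Phm, amon, 7B2, Pal2 and tap was not tested.

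In the authors' deposited table of 3049 genes, beside 13822 loci in the transcript table, 3 of the 10 members were listed. The 7 not listed include amon, 7B2 and Pal2, which were called as falling here. The authors' deposited table gives a mean log2 fold change of -2.20 for tap (smallest p = 9.18e-09), 0.55 for svr (p = 7.95e-23) and 0.33 for Phm (p = 3.55e-05).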

How the data were processed

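Reads of poly(A) RNA libraries from 3 induced and 3 uninduced libraries were counted by the authors. The deposited table of 24047 transcripts gives unnormalised read counts, per the file headers. DESeq is named in the submitters' processing notes. Aligner, counter, build and strandedness are not given in the sources used. The second table holds, per the file headers, the authors' mean log2 fold changes and smallest p-values per gene. Transcript lengths (other values) are the authors' sums of exons. A read in an exon shared by transcripts was counted in each, since all rows summed to 1.998 times the reads with 1 transcript per locus.

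Here 1 transcript per locus was kept, and 8236 loci passed edgeR's default filter (minimum count 10). Tests used edgeR 4.0.16 (quasi-likelihood, TMM scaling, Benjamini-Hochberg adjustment) in R 4.3.3. Normalised counts are reads over a scaling factor with a mean of 1. The SE is the absolute log2 fold change over the square root of F. Alternatives were DESeq2 1.42.0, other scalings, no filter, sums over transcripts, a replicate block and leaving out each library. The members and gene lists were chosen with earlier results of these data known. All 10 members are named. From each other list at most 4 genes past the threshold with the largest change and at most 2 others with the highest mean are named, with exceptions marked. RefSeq symbols matched 12825 of 13822 loci by Entrez identifier. Genes were counted without a stated strand, so overlapping genes are uncertain. A planned description of promoters and proteins was not made, for want of sequences.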

Additional observations from a re-analysis of the deposited data

How the results depend on the processing

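Across the alternatives named for the processing, svr and Phm rose and amon, Pal2 and tap fell in every one, with log2 fold changes of 0.52 to 0.78, 0.28 to 0.55, -0.94 to -0.67, -0.46 to -0.23 and -2.30 to -1.76. In the test as reported, tap passed the filter through the uninduced libraries alone, so a fall was built into its being tested. The call on 7B2 was lost with library totals as scaling (-0.22) and without induced replicate 1 (-0.33), and over the left-out libraries it lay between -0.54 and -0.30. With library totals the median over all genes moved from 0.03 to 0.22, and 3737 genes rose in place of 2272. More rose among further fate genes (6), further release genes (8), hormone genes (4) and markers of neurons (2), enterocytes (3) and muscle (4). Fewer fell among further fate genes (2), further processing genes (1), further release genes (2) and markers of enterocytes (2) and muscle (0). Further fate genes that rose also numbered 6 with no filter and 5 with DESeq2's Wald test. Hormone genes that rose numbered 1 with DESeq2's Wald test and 1 to 3 over left-out libraries. Neuron markers that rose, 0 in the test as reported, numbered 1 with DESeq2's Wald test, 2 with no filter, 3 with sums over transcripts, 1 with the replicate block and 0 to 1 over left-out libraries. Muscle markers that fell, 1 as reported, numbered 0 with the replicate block and 0 to 2 over left-out libraries. With sums over transcripts the exact p of the ratio to pros was 0.2 for Poxn and 0.1 for 7B2, in place of 0.1 and 0.2. The causes were not tested.

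Replicate numbers of the columns did not pair the libraries: deviations of same-numbered libraries correlated at -0.158, 0.0473 and -0.0944. With the replicate block 2 members rose and 4 fell, as without it, over 4281 genes called in place of 4476. Poxn, at 22 and 26 reads, sits at the limit that depth sets.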
